A study of Mus musculus with 4 samples.

Results

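Nonsense-mediated decay (NMD) is the surveillance pathway that degrades messenger RNAs whose stop codon lies too far upstream of the last exon-exon junction. The exon junction complex left by splicing marks such junctions, and the helicase UPF1 with the SMG and UPF proteins starts the decay when translation stops before it. Splicing that adds an exon with a stop, skips an exon or shifts the frame makes such transcripts, and many genes for splicing factors lower their own output by this route.

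The annotation class nonsense_mediated_decay held 7186 transcripts of 4576 genes among the 141767 transcripts present in both deposited quantifications. Those described here are the 2997 transcripts, of 1831 genes, whose gene had at least 10 TPM (an abundance scaled for transcript length and library size) in all 4 libraries. They were chosen by the annotation and by the gene TPM of these same libraries. Gene TPM includes the member's own TPM, so a member with a high share passed largely through its own value. Of the 55536 genes, 6026 passed that level, with 39004 transcripts. The biotype comes from the annotation and is a prediction from transcript structure; decay itself was not measured.

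The libraries were polyA RNA-seq of bone-marrow-derived macrophages, macrophages grown in culture from marrow of C57BL/6J mice. There was 1 group of 4 replicates. These cells had Lipid A, the membrane anchor of lipopolysaccharide that TLR4 senses, at 100 ng/mL for 12 h, then 12 h without it, then again at 100 ng/mL for 60 min. Other labels of the same samples name lipoprotein A and no washout, so the records conflict. Sex and age are recorded as not collected, and all 4 replicates carry 1 donor record, so tests between libraries measure the spread between these samples, which may be technical. Untreated cells are not analysed here, and no value below is a response to the treatment. A share is the percent of a gene's TPM assigned to 1 transcript, as deposited in the first quantification and recomputed from TPM in the second, a separate method run on the same libraries.

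The coding bases that lead to the annotated stop codon are shown here for some of these transcripts. In the sequences below, read from the GENCODE M21 transcripts (mm10) and written 5′ to 3′ as spliced RNA in DNA letters, capitals mark the stop codon. Each is a transcript that the results turn on. In the first set the stop lies in sequence that no coding transcript of the gene contains.
Il4ra-205: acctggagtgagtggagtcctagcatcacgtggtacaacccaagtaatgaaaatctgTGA
Srsf3-201: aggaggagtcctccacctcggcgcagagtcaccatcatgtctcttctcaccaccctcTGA
Sat1-207: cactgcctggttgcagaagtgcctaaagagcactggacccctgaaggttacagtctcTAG
Tra2a-202: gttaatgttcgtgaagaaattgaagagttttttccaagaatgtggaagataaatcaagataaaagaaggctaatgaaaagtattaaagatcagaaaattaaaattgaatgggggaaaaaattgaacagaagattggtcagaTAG
Oas1g-203: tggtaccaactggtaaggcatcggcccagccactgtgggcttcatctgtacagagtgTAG
Rgs1-204: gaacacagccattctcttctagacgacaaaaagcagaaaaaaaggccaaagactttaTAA
In Il4ra-205 (chr7:125571551-125571953, plus strand, intron included) the last 20 bases belong to an extra exon of 114 bases. The last 34 bases of Srsf3-201 (chr17:29038599-29039487, plus strand) come from an extra exon of 456 bases. For Sat1-207 (chrX:155215217-155215646, minus strand) the figures are 14 bases and an extra exon of 110. All 144 bases of Tra2a-202 (chr6:49252965-49253108, minus strand) lie in an extra exon of 306 bases. No whole exon is added in Oas1g-203 (chr5:120881837-120881896, minus strand) or Rgs1-204 (chr1:144248605-144248956, minus strand), where 48 and 4 of the 60 bases printed are outside the exons of coding transcripts.

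In the second set all 60 bases lie in exons that coding transcripts also use, and each transcript has at least 1 junction that no coding transcript of its gene has.
Mx1-205: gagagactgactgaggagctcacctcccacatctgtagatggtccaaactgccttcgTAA
Oasl2-205: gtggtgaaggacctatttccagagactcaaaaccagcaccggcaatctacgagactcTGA
Hyi-202: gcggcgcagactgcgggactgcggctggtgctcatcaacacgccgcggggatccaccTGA
Rpsa-206: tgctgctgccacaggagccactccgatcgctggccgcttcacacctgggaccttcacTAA
Mrps14-201: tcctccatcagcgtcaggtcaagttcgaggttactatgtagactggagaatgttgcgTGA
Hnrnpu-206: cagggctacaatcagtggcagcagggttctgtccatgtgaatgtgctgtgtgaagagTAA
Mx1-205 (chr16:97451528-97452808, minus strand) skips 72 bases of exon found in the gene's most abundant coding transcript, Mx1-204, a model of 481 bases. That exon, at chr16:97462699-97462770, lies outside the span printed. Oasl2-205 (chr5:114897854-114901290, plus strand) skips 289 bases of such exon, within the span printed. Hyi-202 (chr4:118360183-118361626, plus strand) skips 82 bases in 2 exons. Rpsa-206 (chr9:120130135-120130194, plus strand) and Mrps14-201 (chr1:160196951-160197010, plus strand) skip no whole exon. The stop of Hnrnpu-206 (chr1:178325281-178329894, minus strand) falls where coding transcripts have untranslated sequence, after 2379 coding bases.

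Expected counts on genes were between 23167140 and 41453162 per library. All 12 macrophage markers had at least 1 TPM in each library, with a sum of 19170 to 22240 TPM, while 8 neutrophil markers summed to 111 to 209 TPM. Of the latter, Csf3r had 83.0 to 110 TPM. S100a8 had 49.3, 5.58, 34.0 and 5.69 TPM in replicates 1, 2, 3 and 4, and S100a9 71.4, 6.77, 61.7 and 5.1. The rest of the neutrophil markers had at most 1.68 TPM each, with Ly6g at 0. Dendritic cell, B cell and stroma markers summed to at most 7.06, 6.66 and 7.21 TPM, and T cell, NK cell, mast cell and erythroid markers to at most 1.47 TPM each. By the deposited records, replicates 1 and 2 each came from 6 read files and the other pair from 4, a technical split that some results below follow.

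Most NMD transcripts took a small part of their gene. The median over the 2997 of the mean share was 0.885% in the first quantification and 1.38% in the second, with 75th percentiles of 4.12% and 5.15% and 90th percentiles of 16.4% and 18.8%. No count fell on 313 of them in any library of either quantification, and 2234 stayed under 10% in every library of both. A share of at least 10% in all 4 libraries and both quantifications, called a substantial share here, was reached by 267 transcripts (8.91%) of 253 genes, against 16.1% of all 16646 transcripts of the same genes. A share of at least 50% by the same measure was reached by 28. Summed over the NMD transcripts of each gene, 289 genes had at least 10% and 39 at least 50%.

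Among the other classes of the same 1831 genes, 2234 of 7061 protein-coding transcripts (31.6%) had a substantial share. So did 111 of 4782 retained-intron transcripts (2.32%), which keep an intron and are usually held in the nucleus, and 71 of 1798 processed transcripts (3.95%). The median mean share of retained-intron transcripts was 0.515% in the first quantification and 0.804% in the second. These counts describe the annotation's classes in 1 set of libraries and were not tested.

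Pooled over the 1831 genes, NMD transcripts held 7.45%, 8.10%, 9.19% and 9.30% of TPM in replicates 1, 2, 3 and 4 of the first quantification (8.51% ± 0.891, SD, n = 4). In the second they held 10.2%, 10.7%, 8.58% and 8.67% (9.52% ± 1.06, SD, n = 4). Replicates 3 and 4 were thus the high pair in the first and the low pair in the second, and the pairs are also those of the read files. Without the genes Gpnmb and Lars2, described below and left out after seeing the data, the first quantification gave 7.21%, 7.68%, 8.09% and 7.77% (7.69% ± 0.365) and the second 9.37%, 9.63%, 8.45% and 8.24% (8.92% ± 0.681). The spread was smaller without them and the order of the pairs was as before.

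Retained-intron transcripts are the class most like these. Over the 1534 genes with both classes, NMD transcripts held 8.97% ± 0.975 of TPM and retained-intron transcripts 5.85% ± 0.744 in the first quantification (SD, n = 4). The difference, NMD minus retained intron, was 2.76, 2.04, 3.21 and 4.45 percentage points in replicates 1, 2, 3 and 4. NMD transcripts were higher in 4 of 4 libraries, by 3.12 points on average (exact two-sided sign-flip permutation test over libraries, p = 0.125, the smallest that 4 libraries can give, n = 4). The second quantification had the same direction in 4 of 4 libraries, by 1.99 points. The mean difference was 1.93 points without Gpnmb and Lars2, 2.40 in the libraries of 6 read files and 3.83 in those of 4. The part of the read files in this difference was not tested.

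**Figure D1:**
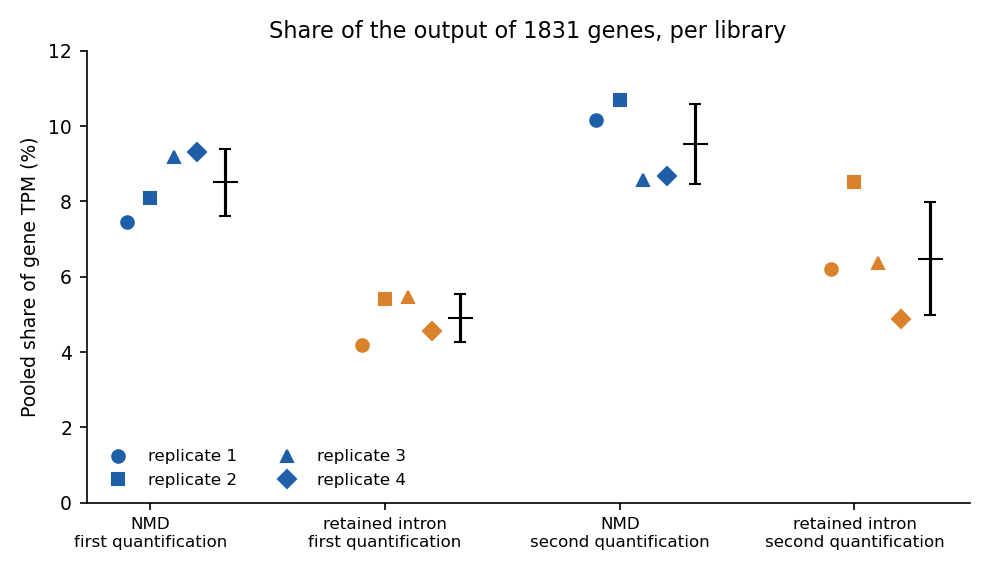
Pooled share of gene TPM (%) held by NMD and by retained-intron transcripts of the 1831 genes, for each quantification; each point is a library and the bar is the mean ± SD (n = 4). NMD transcripts sit between 7.45% and 10.7%; in each library they are above the retained-intron transcripts of the same quantification.

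The members with the highest shares were the main transcript of their gene by both quantifications. Gm20716-201 is the only annotated transcript of its gene, so its 100% says nothing of splicing. Hyi-202, of the hydroxypyruvate isomerase gene, had 91.2%, 87.4%, 83.8% and 92.2% in replicates 1, 2, 3 and 4 of the first quantification and a mean of 87.4% ± 3.66 in the second. The coding transcript Hyi-201 was listed at 0 in all libraries of both. Aptx-205, of the DNA strand-break repair gene aprataxin, had 89.7%, 88.7%, 85.1% and 83.6%, and 85.2% ± 3.52 in the second quantification. The lowest library of either gene was at 82.8% over both quantifications.

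Genes for mitochondrial proteins were among them. Mrps14-201 and Mrpl32-201, of a small-subunit and a large-subunit mitochondrial ribosomal protein, had 85.04% ± 2.87 and 81.1% ± 2.66 in the first quantification and 85.4% ± 4.96 and 83.9% ± 0.715 in the second. Pet100-206, of a cytochrome c oxidase assembly factor, had 79.5% ± 6.96 and 72.3% ± 10.8. Dnajc15-201, of a mitochondrial J-protein, had 76.4% ± 6.97 and 73.8% ± 8.15. Lars2-209, of the mitochondrial leucyl-tRNA synthetase, differed more between the methods: 98.1%, 98.1%, 90.1% and 93.9% in the first and 73.2%, 61.1%, 62.1% and 67.8% in the second. Its 2 ranges do not overlap, though the difference is short of 2-fold and not called (limma log2 difference of second to first -0.52, adjusted p = 0.00726). It nonetheless led its gene in every library of either.

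Hnrnpu-206, of the nuclear scaffold and RNA-binding protein hnRNP U, had 81.2%, 79.2%, 78.3% and 80.3% in the first quantification and 74.1% ± 3.52 in the second. The coding transcript with the highest share, Hnrnpu-201, had 17.1% ± 0.762 and 14.3% ± 1.39. Of the ribosome-making factors, Gtpbp4-201 (a GTPase of large-subunit assembly) had 78.8% ± 5.03 and 74.98% ± 8.12, and Tsr2-203 (an escort protein of a small-subunit protein) 70.4% ± 8.01 and 72.9% ± 5.02. Uggt1-209, of the sensor of misfolded glycoproteins in the endoplasmic reticulum, had 70.0% ± 2.34 and 78.3% ± 1.80. Rxylt1-201, of a xylosyltransferase that acts on dystroglycan, had the largest SD of the 15 in the first quantification, with 68.3%, 76.8%, 91.8% and 74.2%. Commd2-201 and Dbndd2-206 had 75.6% ± 2.30 and 67.4% ± 1.63 in the first, and 77.7% ± 4.31 and 85.9% ± 6.36 in the second.

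Length bears on these shares, because TPM divides by it. Of the 266 substantial members whose gene has a coding transcript, 191 were shorter than the coding transcript with the highest mean share in the gene. The median ratio of lengths was 0.724 (0.498 over all 2996 members with such a partner). Taken from expected counts, not divided by length, 211 of the 267 kept at least 10% in all 4 libraries of the first quantification. Dnajc15-201, of 674 bases beside a coding transcript of 6193, had 34.2% ± 5.26 of its gene's counts. For Mrps14-201 (674 against 2999 bases) the share of counts was 51.6% ± 2.51, and for Hyi-202 (843 against 910) it was 85.01% ± 5.21.

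**Figure D2:**
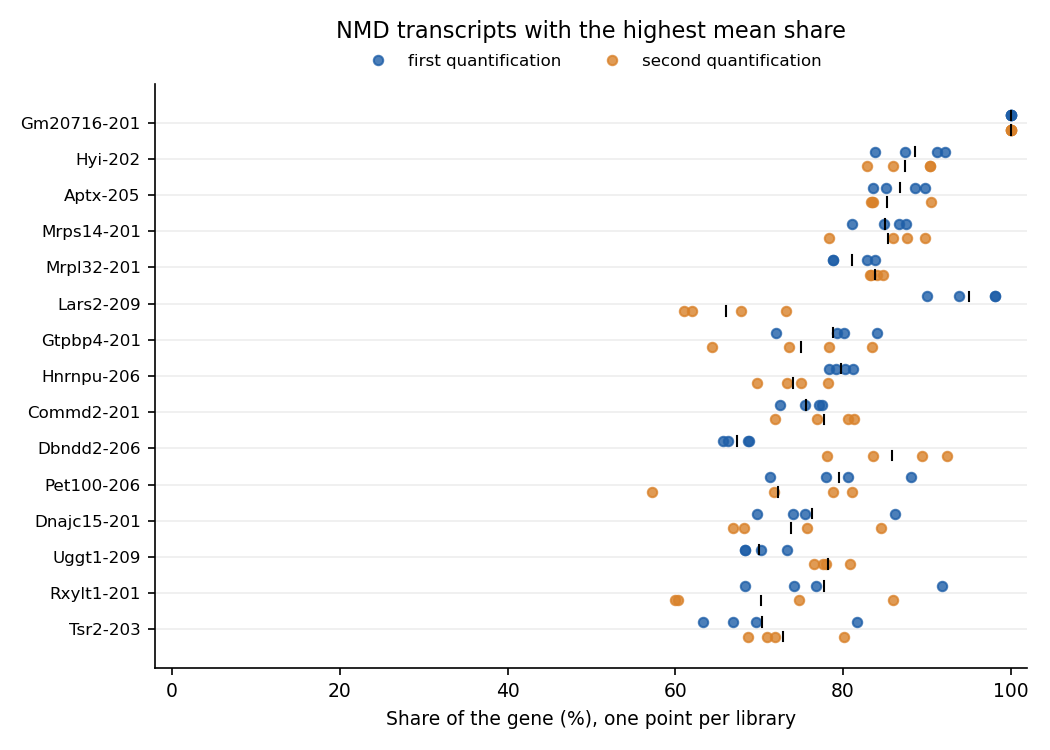
Share of the gene (%) in each library for the 15 members with the highest mean share among those with a substantial share; points are libraries, colour is the quantification and the black tick the mean of 4. Lars2-209, Hnrnpu-206, Dbndd2-206 and Uggt1-209 have separate ranges in the quantifications, and Gm20716-201 is its gene's only transcript.

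The 10 most abundant members by TPM in the first quantification included Lars2-209, at 370, 556, 90.2 and 176 TPM (1156 on average in the second). Replicates 1 and 2 were the high ones for it. Gpnmb-202, of the transmembrane glycoprotein GPNMB found in lysosome-rich macrophages, had 335, 563, 2399 and 3225 TPM in replicates 1, 2, 3 and 4 of the first quantification. In the second it had 22.2, 34.7, 42.9 and 185 TPM. Replicates 3 and 4 were high in the first, and every value of the second lay below all of the first. This transcript is 365 bases long, so a given number of reads makes a higher TPM than in a longer one.

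Rgs1-204, of a regulator that switches off G-protein signalling from chemokine receptors, had 612, 1027, 532 and 944 TPM in the first quantification and 573 on average in the second. Its share was steady at 52.3% ± 3.35 and 56.2% ± 1.03. Of its coding transcripts, Rgs1-207 had 5.08% ± 3.42 and 0.0655% ± 0.0706, and Rgs1-208 2.12% ± 0.215 and 0.962% ± 0.181. Ppia-201, of the abundant prolyl isomerase cyclophilin A, had a mean of 566 TPM and 45.7% ± 3.31 of its gene in the first quantification, and 47.8% ± 2.74 in the second. Xaf1-201, of an interferon-inducible antagonist of XIAP, had 236, 225, 230 and 253 TPM and a share of 46.4% ± 1.92 and 43.4% ± 2.72. By counts, not divided by its 415 bases, its share was 11.3% ± 0.281. Its stop is 29 bases before its last junction, and it was the 1 substantial member under 50 bases. Lilr4b-204, of a leukocyte immunoglobulin-like receptor, had 28.9% ± 3.51 and 25.1% ± 4.72. That gene has a close paralog, Lilrb4a, so reads could be split between them.

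SR proteins bind exonic enhancers and promote exon use, and several are known to add a stop-bearing exon to their own messages. Of the 15 genes listed, 14 were expressed and 13 had a member, 23 members in all. Of these 3 had a substantial share (13.0%, beside 8.91% of all members), Srsf6-201, Srsf2-204 and Srsf3-201. The median mean share was 1.54% in the first quantification and 1.70% in the second, beside 0.885% and 1.38% over all members. Srsf3-201, whose stop-bearing exon is shown above, had 22.4%, 18.9%, 14.99% and 20.7% in the first quantification and 30.5%, 24.5%, 24.5% and 37.1% in the second. The coding Srsf3-202 had 69.2% ± 1.45 and 50.3% ± 6.05.

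Srsf2-204 had 31.7%, 32.3%, 42.0% and 49.9%, with replicates 3 and 4 above 1 and 2, and the second quantification kept that order at 33.9% ± 5.72 on average. Srsf6-201 had 25.5% ± 8.23 in the first and 51.2% ± 3.85 in the second, with no overlap between the methods (limma log2 difference 1.04, adjusted p = 0.0501). Tra2a-202, of the SR-like activator transformer 2 alpha, had 6.43%, 12.2%, 13.0% and 8.28% in the first and 22.1%, 29.9%, 45.4% and 30.2% in the second. The methods again did not overlap for it (limma log2 difference 1.59, adjusted p = 0.0054). Thus of these transcripts only Srsf2-204 had overlapping ranges in the methods. That model, of 620 bases, is annotated as incomplete at an end and shares its stop with a coding transcript. It has no base and no junction outside the coding transcripts of its gene, so no single base or junction sets it apart from them. By counts, not divided by length, the share of Srsf2-204 was 13.5% ± 4.59 in the first quantification.

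The hnRNPs bind nascent RNA and often silence exons. Of 30 such repressors listed, 27 were expressed and 13 had members, 29 in number, of which 5 had a substantial share (17.2%, beside 8.91%). Beside Hnrnpu-206, these included Syncrip-203 at 32.2% ± 6.91 and 40.6% ± 4.11, Hnrnpdl-201 at 28.6% ± 7.89 and 30.9% ± 9.79, and Hnrnpa1-203 at 26.5% ± 4.10 and 24.9% ± 3.58. For the last, of the major splicing repressor hnRNP A1, the coding Hnrnpa1-202 had 69.3% ± 3.89 and 69.6% ± 2.84. Hnrnpdl-201 and Hnrnpa1-203 each share their stop with a coding transcript of the gene. Medians over the list were 1.46% and 2.59%.

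Spliceosome components and splicing kinases had 57 members in 25 of 42 expressed genes, with 2 substantial (3.51%, beside 8.91%) and medians of 0.655% and 1.88%. Both were kinases that phosphorylate SR proteins. Srpk2-204 had 48.5%, 54.1%, 45.7% and 39.0% in the first quantification and 54.9% ± 5.72 in the second. Clk1-210, which skips an exon of 91 bases, had 24.0%, 27.9%, 25.3% and 33.5%, and 23.6% ± 5.29 in the second. Replicate 4 was the lowest for Srpk2-204 and the highest for Clk1-210. Prpf38b-208, of a spliceosome subunit, had 16.4% ± 5.84 and 26.2% ± 5.0 and was under 10% in replicate 1 of the first. Snrpa1-201, of a U2 snRNP protein, had 14.4% ± 3.18 and 9.28% ± 3.34.

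Factors of NMD itself and of the exon junction complex were examined as a list of their own. Of 33 genes listed 24 were expressed, and 3 of them (Magohb, Smg1 and Smg5) had 5 members, none with a substantial share, and medians of 0.385% and 2.86%. Magohb-203, of a core subunit of the junction complex, had 2.29% ± 1.07 and 2.86% ± 1.04. Smg5-202, of a factor that recruits decay enzymes, had 1.61% ± 1.71 and 1.92% ± 2.61. Magohb-202 and Smg1-204 were listed at 0 in the first quantification; in the second Magohb-202 had 21.6% and 27.0% in replicates 1 and 2 and 0 in the others.

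**Figure D3:**
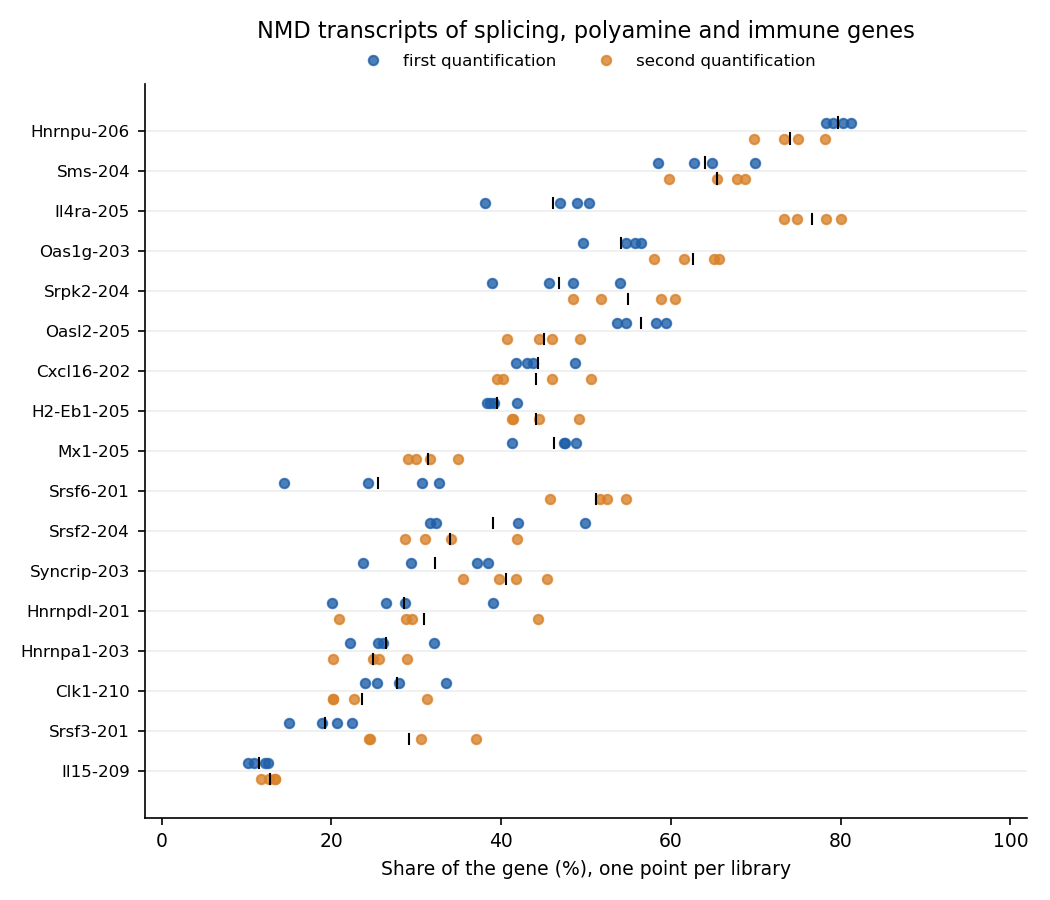
Share of the gene (%) in each library for members of the gene lists other than ribosomal proteins with a substantial share, up to 4 per list; points are libraries, colour is the quantification and the black tick the mean of 4. Hnrnpu-206 and Sms-204 are highest by first quantification; Il4ra-205, Oas1g-203 and Srsf6-201 are among those whose ranges in the quantifications are separate.

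All 82 cytosolic ribosomal protein genes listed were expressed, and 19 had members, 25 in number, of which 6 had a substantial share (24%, beside 8.91%). Medians were 1.21% and 1.85%. Rpsa-206, of the small-subunit protein also known as the laminin receptor, had 52.3%, 59.0%, 71.8% and 70.4% in the first quantification and 74.6%, 74.2%, 78.6% and 77.9% in the second. In both methods replicates 3 and 4, the libraries of 4 read files, were above replicates 1 and 2. Rps19-205, whose stop is in an extra exon of 81 bases, had 19.3% ± 1.29 and 21.7% ± 5.84. Rpl12-201 had 17.0% ± 1.38 in the first and 53.1% ± 7.49 in the second (limma log2 difference 1.58, adjusted p = 0.00603). Its mean TPM went the other way, from 29.5 in the first to 3.43 in the second. The higher share of Rpl12-201 is thus not a higher estimate of that transcript. Ribosomal protein genes have many processed pseudogenes of near-identical sequence, so reads could be shared among copies and these values be uncertain. The part of such sharing was not tested.

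Transcripts of the integrated stress response and of polyamine metabolism include several known targets or sensors of decay. Here 5 of 16 expressed genes had 7 members, with 1 substantial (14.3%, beside 8.91%). Sms-204, of spermine synthase, had 62.7%, 64.9%, 58.5% and 69.9%, and 65.4% ± 4.01 in the second quantification, against 28.9% ± 2.31 and 22.1% ± 3.18 for the coding Sms-201. Sat1-207 carries the stop-bearing exon of spermidine/spermine acetyltransferase, an exon whose use is known to depend on polyamines. It had 7.16%, 8.62%, 6.49% and 7.76% in the first quantification and 9.39% ± 0.809 in the second, while the coding Sat1-201 had 79.0% ± 2.48 and 73.4% ± 4.43. Odc1-205, of ornithine decarboxylase, had 11.1% ± 2.37 and 5.40% ± 1.98. The list's medians, 7.51% and 5.40%, rest on 7 transcripts.

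In TLR and NF-kB signalling 37 of 41 listed genes were expressed and 9 had members, 12 in all, none with a substantial share. Medians were 0.695% and 0.950%. Nfkb1-207, of the p105 and p50 subunit of NF-kB, had 16.2%, 15.6%, 10.5% and 13.3% in the first quantification but 0.836%, 2.24%, 0 and 0 in the second (limma log2 difference -3.24, adjusted p = 0.00646). Rela-206 and Relb-210, of other NF-kB subunits, had 1.60% ± 0.545 and 4.12% ± 0.979 in the first, and 5.99% ± 1.93 and 4.69% ± 1.45 in the second. Otulin-203, of a deubiquitinase of linear ubiquitin chains, had 2.58% ± 1.62 and 4.6% ± 0.741.

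All 52 interferon-response genes listed were expressed, and 15 had 21 members, 3 of them substantial (14.3%, beside 8.91%), with medians of 1.92% and 2.85%. These 3 belong to gene families known for antiviral effectors, and no such activity was measured here. Oas1g-203, of an oligoadenylate synthetase, had 49.7%, 54.7%, 55.8% and 56.5% in the first quantification and 65.7%, 61.6%, 58.0% and 65.1% in the second, against 37.2% ± 5.81 and 21.9% ± 3.33 for the coding Oas1g-201. Oasl2-205, of an oligoadenylate synthetase-like protein, had 53.6%, 54.7%, 59.5% and 58.3% in the first and 45.1% ± 3.56 in the second. That difference was short of 2-fold and not called (limma log2 difference -0.32, adjusted p = 0.0072). Mx1-205, of a dynamin-like GTPase, had 47.4%, 48.8%, 47.5% and 41.3% in the first and 31.4% ± 2.61 in the second, also not called (limma log2 difference -0.55, adjusted p = 0.0165). The lowest library value among these 3 was 29.0%, in Mx1-205. Oas1g belongs to a family of near-identical neighbours, so reads could be shared among them and its values be uncertain, which was not tested. Ifngr2-202, of an interferon gamma receptor chain, had 22.5% ± 14.1 in the second but was above 0 in only replicate 2 of the first.

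Among cytokines, chemokines and their receptors 10 of 39 expressed genes had 12 members, and 3 were substantial (25%, beside 8.91%). Medians were 1.25% and 1.45%. Il4ra-205 carries an exon with a stop in the IL-4 receptor alpha chain; the soluble receptor of mice is known to arise from such an alternative exon. It had 48.9%, 50.3%, 47.0% and 38.1% in the first quantification and 80.1%, 78.3%, 74.9% and 73.4% in the second. The coding Il4ra-201 had 52.4% ± 5.803 and 20.97% ± 3.49, so the methods differ on which of the pair leads on average. The difference for Il4ra-205 was short of 2-fold and not called (limma log2 difference 0.73, adjusted p = 0.00599). In replicate 2 of the first quantification Il4ra-205 was above Il4ra-201 (47.9%). Cxcl16-202, of a membrane-bound chemokine and scavenger receptor, had 44.3% ± 3.06 and 44.1% ± 5.21. Its stop is shared with a coding transcript. Il15-209, of interleukin 15, had 10.2%, 10.9%, 12.6% and 12.2%, and 12.7% ± 0.764 in the second, so it lies close to the 10% limit. Il10ra-203, of the interleukin 10 receptor, had 4.09% ± 2.23 and 3.24% ± 1.48.

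For antigen presentation and the lysosome 7 of 42 expressed genes had 10 members, with 1 substantial (10%, beside 8.91%) and medians of 0.370% and 0.411%. H2-Eb1-205, of an MHC class II beta chain, had 39.2%, 41.8%, 38.7% and 38.3% in the first quantification and 44.1% ± 3.68 in the second. Ctsh-202, of the lysosomal protease cathepsin H, had 21.3% ± 1.05 in the first; in the second it had 21% and 22.7% in replicates 1 and 2 but 4.02% and 2.87% in replicates 3 and 4. Psmb9-207, of an immunoproteasome subunit, had 3.01%, 2.11%, 11.3% and 11.2% in the first and 23.3% ± 7.14 in the second. In Ctsh-202 and Psmb9-207 at least 1 quantification separated the libraries by the number of their read files. The lists are small, their counts of substantial members run from 0 to 6, and no list was tested against the others.

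The stop codon lay at least 50 bases upstream of the last junction in 2974 of the 2997 transcripts, the usual sign of the class, with a median distance of 306 bases (358 over substantial members). The stop fell inside the coding sequence of a coding transcript in 1778 members, outside every exon of coding transcripts in 997, at a stop shared with a coding transcript in 177 and in untranslated sequence in 44. The share of members that were substantial was 9.39%, 7.22%, 14.1% and 4.55% in these classes. In 65 members no base and no junction lay outside the coding transcripts of the gene, and 12 of them were substantial (18.5%). An internal exon that overlaps no exon of any coding transcript of the gene held the stop in 613 members, 44 of them substantial (7.18%). At least 1 exon of the gene's most abundant coding transcript was skipped in 1046, with 82 substantial (7.84%).

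Annotation support was set beside the shares in the same way. The transcript support level grades how well other RNA evidence backs a model, with 1 the best. Of 700 members at level 1, 112 were substantial (16%), with 22 of 207 at level 2 (10.6%), 26 of 633 at level 3 (4.11%) and 77 of 1063 at level 5 (7.24%). Members annotated as incomplete at an end were substantial in 44 of 935 cases (4.71%), against 223 of 2062 of the rest (10.8%). By length, 185 of 1391 members of at least 1000 bases were substantial (13.3%), 80 of 1478 from 400 up to that (5.41%) and 2 of 128 under 400 (1.56%). These are descriptions of overlapping features, and transcripts of 1 gene are not independent.

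Few members varied between the 4 libraries beyond the trend for their abundance. By edgeR's deviance test on rounded expected counts, 13 of the 906 members with enough counts passed an adjusted p of 0.05 (1.43%), beside 1.66% of all 22514 transcripts tested, so the share is near the background. Before adjustment 80 members had a p under 0.05 (8.83%, beside 7.64%). For 12 of the 13 the gene as a whole was tested and not called. That is the common case, since the test called 305 of all 11679 genes (2.61%). Of the 1831 genes with a member it called 17. Of the 13 transcripts, 3 were among the 31 of 1067 members called on the counts of the second quantification (2.91%, beside 1.78% of all transcripts there). Without replicate 4 the calls were 8 (0.855%, beside 1.1%). In bulk RNA, fewer cells with a transcript and less of it per cell cannot be told apart.

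Gpnmb-202 had 30.6, 44.1, 178 and 242 CPM (its reads relative to the library's total) in the replicates in order (edgeR adjusted p = 1.52e-08), while its gene had between 7660 and 9730 CPM. Its share was 9.24%, 13.5%, 39.8% and 43.8% in the first quantification but 0.925%, 1.504%, 1.195% and 4.65% in the second. Mdm2-209, of the ubiquitin ligase that degrades p53, had 10.4, 13.4, 63.4 and 48.0 CPM (edgeR adjusted p = 3.89e-05). Both were high in the libraries of 4 read files, and these calls held without any 1 library. In the second quantification the share of Mdm2-209 was 1.28%, 0.911%, 9.86% and 8.67e-06%, so replicate 4 was then the lowest. The part of the read files was not tested.

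Lars2-209 had 972, 1260, 214 and 434 CPM (edgeR adjusted p = 0.000131), high in the libraries of 6 read files. It was the 1 case of the 13 where the gene was called too, at 991, 1290, 234 and 454 CPM (edgeR adjusted p = 1.29e-05). Without replicate 3 the transcript's adjusted p was 0.259.

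Wdr26-201, of a subunit of a ubiquitin ligase, was low in replicate 3 alone, at 36.1, 29.6, 3.07 and 25.3 CPM (edgeR adjusted p = 2.82e-05; 1 without replicate 3). Itgb2-204, of the leukocyte integrin beta 2, was low in replicate 2 alone, at 12.8, 1.76, 24.9 and 21.2 CPM (edgeR adjusted p = 7.04e-05; 1 without replicate 2). Those calls thus each rest on 1 library. Rpl13a-202, Ddhd1-208, Luc7l2-209, Emd-206 and Tcirg1-202 followed with adjusted p-values of 0.00188 to 0.00968 by edgeR, and each lost its call without at least 1 library. Emd-206, of the nuclear envelope protein emerin, had 1.18, 0.711, 4.93 and 7.54 CPM, with replicates 3 and 4 the high ones.

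**Figure D4:**
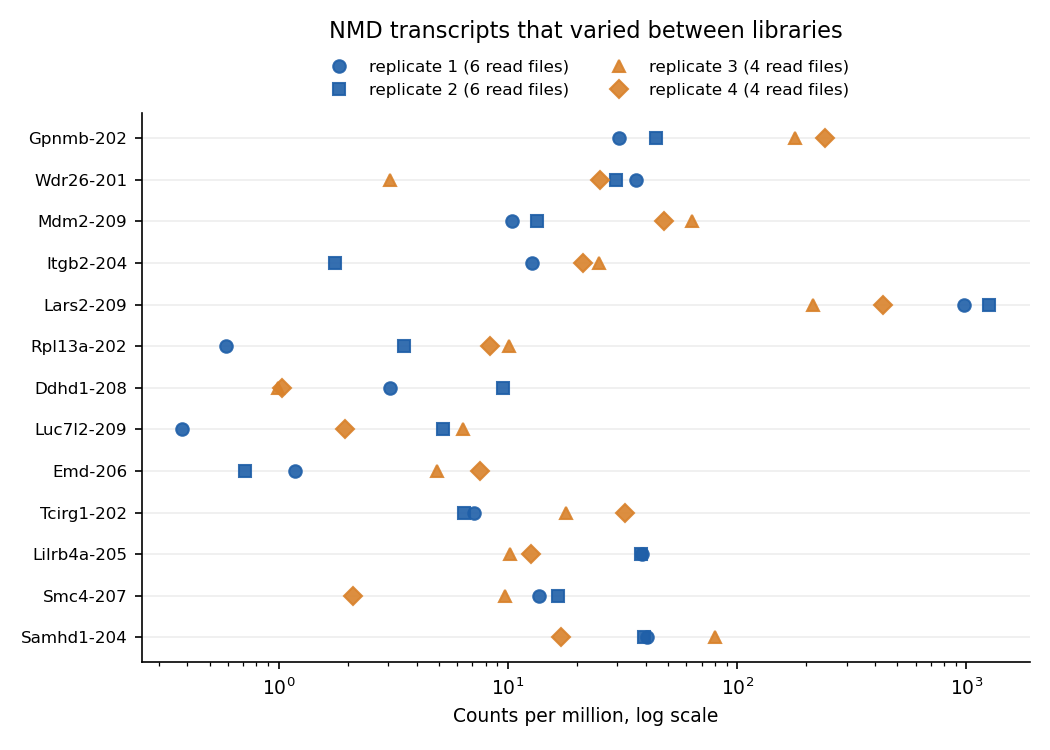
CPM on a log scale in each library for the 13 members that varied between libraries by edgeR's deviance test; shape is the replicate and colour the number of read files. Gpnmb-202, Mdm2-209, Emd-206 and Tcirg1-202 are high in the libraries of 4 read files, Lars2-209, Ddhd1-208 and Lilrb4a-205 in those of 6.

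The quantifications, made from the same libraries, ranked the transcripts alike but differed on single ones. Across the 2997 members the mean shares had a Spearman rho of 0.854 and a Pearson r of 0.908; transcripts are not independent and both methods share the reads. By limma on the per-library log2 ratio of shares, with 1 percentage point added to each, 193 of 1627 members tested differed at least 2-fold with an adjusted p up to 0.05 (11.9%), beside 9.07% of all 21942 transcripts tested. Higher in the second were 140 (8.60%, beside 6.22%), and lower 53 (3.26%, beside 2.85%). Without replicate 1, 2, 3 or 4 the calls were 109, 105, 127 and 109. These were 6.84%, 6.66%, 7.79% and 6.59% of the members tested, beside 5.51%, 4.79%, 6.14% and 5.0% of all transcripts. A call here measures the methods, not the cells.

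On the log2 scale with 1 point added, the largest excess in the second quantification was in Spic-202, of the transcription factor Spi-C of iron-recycling macrophages. It was listed at 0 in all 4 libraries of the first and had 36.9%, 32.6%, 43.5% and 10.9% in the second (limma log2 difference 4.84, adjusted p = 0.00551). Uvrag-208, of a regulator of autophagy, had 0.450% ± 0.350 against 33.8% ± 2.07. Ankfy1-202, of an endosomal protein, had 3.09% ± 1.44 against 78.0% ± 4.44, while the coding Ankfy1-206 had 95.3% ± 1.32 against 13.4% ± 4.26. In percentage points that excess was larger than for Spic-202, and the 2 methods named different main transcripts for the gene. Llph-203 and Rps12-204 completed the 5 largest, with limma log2 differences of 4.34 and 4.02. The mean TPM of Rps12-204 was 8.03 in the first and 5.51 in the second, so its share rose while its TPM did not. Llph-203 lost its call without replicate 1, 2 or 4 (limma adjusted p of 0.12 to 0.129), and in the first quantification it was above 0 in replicate 3 alone.

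In the other direction Mroh1-208, a model of 388 bases, had 12.1%, 28.8%, 35.4% and 39.1% in the first quantification and was listed at 0 throughout the second (limma log2 difference -4.78, adjusted p = 0.00444). Its share of the gene's counts in the first was 1.35% ± 0.621, far below its share of TPM; for Myof-205 that share was 4.68% ± 0.919 and for Xpo6-219 6.65% ± 0.602. Myof-205, of the membrane-repair protein myoferlin, had 32.2% ± 4.09 against 1.72% ± 3.43, a call lost without replicate 1, 3 or 4 (limma adjusted p of 0.0576 to 0.0637). Dennd1b-208, of an exchange factor for Rab35, had 23.8% ± 12.4 against 0.166% ± 0.0494. Xpo6-219, of the exporter of actin from the nucleus, had 27.3% ± 1.27 against 1.19% ± 0.845, and Lars-209 20.6% ± 6.61 against 1.28% ± 1.55, a call lost without replicate 4 (limma adjusted p = 0.0545). A share of at least 10% in every library of 1 method and under 1% in every library of the other was found in 5 members: Mroh1-208 and Dennd1b-208 in the first, and Uvrag-208, Spic-202 and Rbm39-224 in the second. More widely, 63 members had at least 10% in all libraries of the first but not of the second, and 87 the reverse. These counts were made for members only and not over all transcripts, so they cannot be read as particular to this class.

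**Figure D5:**
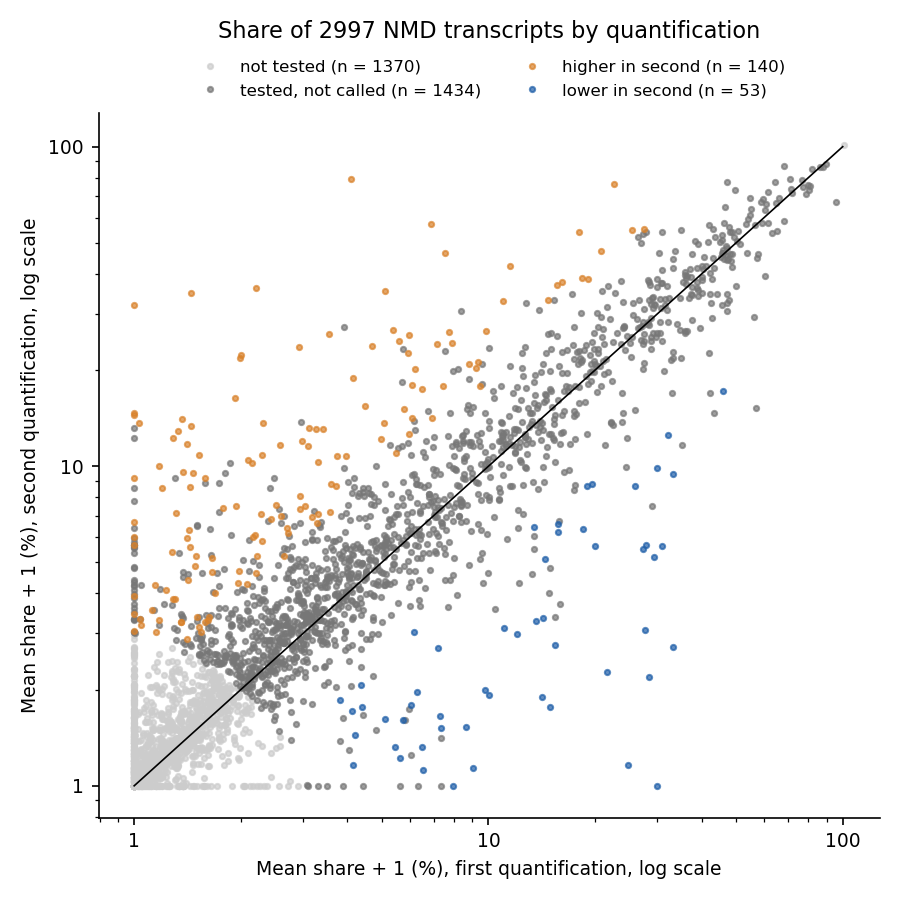
Mean share of the gene plus 1 (%) in the first (x axis) and second (y axis) quantification for the 2997 members, both axes on a log scale, coloured by the limma call; the line marks equal shares. Members above 50% in the first are mostly near the line, and 140 members lie above it and 53 below it as called.

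Shares were also compared between libraries by their number of read files. Of 682 members with a mean share of at least 5% in the first, 55 were higher in the libraries of 4 read files by at least 10 points with no overlap (8.06%, beside 7.14% of all transcripts of expressed genes), and 37 were lower (5.43%, beside 6.91%). In the second these were 46 of 763 (6.03%, beside 10.1%) and 90 (11.8%, beside 9.06%). By both quantifications alike, 25 of 603 members were higher (4.15%, beside 3.72%) and 26 lower (4.31%, beside 3.32%), so these shares are near those of all transcripts. Pnpla2-201, of the triglyceride lipase ATGL, was 33.2% in the libraries of 6 read files and 58.2% in those of 4 in the first. The split was examined after seeing the data, each side has 2 libraries, and no test was made.

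At the limit of the rule, Coq10a-202 and Gfm2-205 were just inside, with a lowest gene TPM of 10 and 10.01, and mean shares of 0 and 3.49% in the first quantification. Just outside, Cox18-206 and Gpn3-202 had 9.98 and 9.97, with shares of 11.4% and 0.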

How the data were processed

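Per the deposited records, the authors used mm10 and GENCODE M21; programs are not given in the sources used here. The deposited tables hold, per the file headers, an expected count (not normalised), TPM and each transcript's share of its gene in percent (first quantification), and an estimated count and TPM (second). The deposited interval bounds of TPM, a signal per transcript, were not used. Reads shared between transcripts were divided by each method, so shares are estimates.

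Expected counts per library were 26613690, 23167140, 41453162 and 34946569 on genes; a count of 0 allows 3 counts, 0.113, 0.129, 0.0724 and 0.0858 CPM, for counting error only. Members, gene lists and tests were chosen with earlier results of these data known. Named were the 15 highest mean shares among substantial members, the 10 highest TPM, up to 4 per list by mean share, the 10 smallest adjusted p between libraries, the 5 largest differences between quantifications each way, and 2 members each side of 10 TPM. Results for 2 transcripts that the rule names are not reported here. Rbm39-224 and Pnpla2-201 were named after their values were seen.

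Counts were rounded and tested with edgeR 4.0.16 in R 4.3.3 (filterByExpr, TMM, trended dispersion, intercept only, deviance over 4 libraries). Shares were compared with limma 3.58.1 (trend; mean share of at least 1%, pseudocount 1 percentage point, absolute log2 difference of at least 1). Both used Benjamini-Hochberg at 0.05 over all transcripts and were tested on simulated data. Alternatives used DESeq2 1.42.0 (size factors and dispersion trend), other filters, pseudocounts and quantifications, and each library left out. Tables were made in Python 3.11.15 with pandas 2.3.3 and plots in matplotlib 3.10.9. Stops and exons came from the GENCODE M21 annotation.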

Additional observations from a re-analysis of the deposited data

Results flagged for a closer look

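Of 142 sets of 4 library values examined (named shares and pooled shares), 11 had 1 library far from the others, by Dixon's test of the gap against the range; chance gives about 1 in 20. In the first quantification, Llph-203 had 26.1% in replicate 3 and 0 in the others, and Ifngr2-202 had 7.68% in replicate 2 and 0 in the others. Lilr4b-204 had 34.2% in replicate 1 against 26.8% to 27.3%, and Xpo6-219 had 25.4% in replicate 1 against 27.8% to 28.0%. In the second quantification, Aptx-205 had 90.5% in replicate 1 against 83.4% to 83.6%, Rps12-204 had 27.1% in replicate 3 against 36.7% to 38.4%, and Smg1-204 had 24.1% in replicate 1 against at most 3.16%. Also in the second, Myof-205 (6.86%) and Xpo6-219 (2.46%) were high in replicate 2, Mdm2-209 (9.86%) in replicate 3 and Gpnmb-202 (4.65%) in replicate 4.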

How the results depend on the processing

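The count of 267 substantial members was 330 with the first quantification only, 354 with the second only, 382 by mean share and 277 to 284 without 1 library; at a gene TPM of at least 50 it was 92 of 901 members, since fewer transcripts enter. The pooled share of 8.51% was 9.52% by the second quantification and 5.68% by expected counts, which are not divided by length; it was 8.25% to 8.86% without 1 library. The difference from retained-intron transcripts stayed positive under every alternative run, between 1.72 points (mean over genes) and 3.83 (libraries of 4 read files), and 2.67 to 3.47 without 1 library. The 13 members that varied between libraries (1.43%, beside 1.66% of all transcripts) were 14 with DESeq2 size factors (1.55%, beside 1.71%). They were 23 with DESeq2's dispersion trend (2.54%, beside 2.39%). With no filter they were 93 of 2415 (3.85%, beside 1.99%), of which 5 were among the 13. On the second quantification they were 31 (2.91%, beside 1.78%), of which 3 were among the 13. Without 1 library they were 8 to 14 (0.855% to 1.35%, beside 0.826% to 1.12%). The share was thus near that of all transcripts in the main setting, and above it with no filter and on the second quantification. The 193 that differed between quantifications (11.9%, beside 9.07% of all transcripts) were 199 at a pseudocount of 0.1 (12.2%, beside 9.11%). They were 165 with no filter (6.16%, beside 4.81%) and 101 at a pseudocount of 5 (6.21%, beside 4.7%). At a mean share of at least 5% they were 110 (14.9%, beside 9.12%). Without 1 library they were 105 to 127 (6.59% to 7.79%, beside 4.79% to 6.14%). The cause of these changes was not tested. For the members named for the largest differences between quantifications, no log2 difference changed sign under the alternatives run. Direction was not assessed for the named shares or the edgeR calls. Of 76 named mean shares, 51 moved by more than the SD over libraries in the second quantification. At this depth, 313 members with no count cannot be told from rare ones.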
